A study of Bos grunniens with 36 samples.

Results

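The 75 genes described here carry names of mitochondrial ribosomal proteins and were measured in the mammary gland of yaks from late pregnancy through lactation. They were the genes of the deposited value table whose array annotation is MRPL or MRPS with a number, 46 named for the large subunit and 29 for the small subunit, out of 20110 genes in the table. Each gene was represented by the probe with the highest mean over the 36 arrays. RNA came from biopsies of 4 female yaks (Bos grunniens), each sampled at 9 days relative to calving, day -30 and day -15 in late pregnancy and then day +1, +15, +30, +60, +120, +180 and +240. No genotype, treatment or age is given for the animals in the sources used here, and the labels state that the left and right rear of the udder were sampled in turn, without giving the side of each array, so side and day cannot be told apart. Each sample was hybridised in 1 colour to an Agilent array designed for cattle, and all values below are log2 levels relative to the 75th percentile of the array.

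The mitochondrial ribosome translates the small set of proteins encoded in mitochondrial DNA, all of them subunits of the respiratory chain and ATP synthase. Its RNAs come from the mitochondrial genome, whereas its proteins are encoded in the nucleus, made by cytosolic ribosomes and imported. About as many of its proteins are specific to mitochondria as descend from bacterial ribosomal proteins, and the latter surround the decoding site and the peptidyl transferase centre. The secretory epithelium of the lactating mammary gland is rich in mitochondria, which supply ATP and carbon skeletons for the synthesis of milk protein, lactose and fat. MRPS36 keeps its ribosomal name but is now assigned to a dehydrogenase complex of the citric acid cycle, and MRPS30 and MRPS18A lie in the large subunit in current structures.

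All 75 members were well above background on all 36 arrays. Arrays differed in brightness, and the 75th percentile of signal intensity ran from 1027.3 to 6444.1. It was 4850.4 to 5745.6 at day -30, 1027.3 to 2109.4 at day +15, 1275.8 to 2508.3 at day +60, 1526.8 to 4352.5 at day +180 and 1270.4 to 3880.6 at day +240, so every array of these 4 lactation days was dimmer than every array of day -30. By the record of the value table each slide held the 4 arrays of 1 day and each slide position 1 animal, so day and slide cannot be told apart, nor animal and position. Each of the 36 columns of the value table equalled 1 scanner file less a constant, and in 36 of 36 cases that file was deposited under another sample, of another day in 27. The days below are those of the value table. Summed levels of markers are the log2 of the sum of their linear levels, so the brightest markers weigh most. All 11 luminal epithelial markers were above background on all 36 arrays. Their summed level was 7.45 to 8.19 at day -30, 10.27 to 10.87 at day +15 and 10.18 to 10.88 at day +60. CSN1S1, CSN2, CSN3 and PAEP, all milk protein genes, were the brightest, at means of 6.2 to 7.04 against 1.92 to 5.65 in the others. This sum therefore cannot tell milk protein mRNA from epithelial content. The summed levels of 7 leukocyte markers were 3.82 to 4.11, 4.76 to 5.31 and 4.76 to 5.07 at the same days, and those of 6 adipocyte markers 3.45 to 4.31, 5.07 to 5.77 and 5.2 to 6.74. FABP4 was the brightest adipocyte marker, at a mean of 4.63 over all arrays against -2.12 to -0.57 in the others, and weighs most in their sum. The 5 endothelial markers summed to 2.49 to 3.29, 3.34 to 3.88 and 3.51 to 4.16, and the 5 myoepithelial markers in the table to 5.16 to 5.74, 5.4 to 6.29 and 5.75 to 6.22. The 6 stromal markers summed to 6.05 to 6.54, 5.85 to 7.19 and 5.91 to 6.8. The 4 muscle markers summed to 3.26 to 3.89, 3.37 to 3.84 and 2.98 to 3.56. In tissue, fewer cells of a type and less RNA per cell cannot be told apart. Animal 4 at day +120 and day +180 stood apart, with mean log2 levels of the milk protein mRNAs of 0.15 and 0.04 against 6.43 to 8.5 in the other arrays of those days. Animal 3 at day +30, at 4.04 against 5.92 to 7.71, and animal 1 at day +240, at 4.44 against 7.3 to 8.51, were also below the others of their day, within or near the 4.01 to 5.27 of day -30, and both had the lowest member mean of their day.

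Probes of 3 members on which the results turn are shown by their first 30 of 60 bases, 5′ to 3′, with no base marked. They are those of MRPL33, which had the lowest p over the days, of MRPL36, which had the largest rise, and of MRPS9, whose 3 probes did not move alike.
MRPL33, chr11:71923261-71923320, minus strand: ggccattgtgaaggaaaacaatgcagtgaa
MRPL36, chr20:70996302-70996361, plus strand: ggagggctggatagccatctgtaggtcgca
MRPS9, chosen probe, chr11:9135659-9135807, plus strand: tttgtttgagaagcgagcccggcccataat
MRPS9, middle probe, chr11:9156559-9156618, plus strand: tgtttatggccatggcagtgggaagataga
MRPS9, 3′ probe, chr11:9159348-9159407, plus strand: tcctccgcgtgctgtcgattttccagacag
Positions are those of the array annotation on the cattle build UMD 3.1, named in the scanner file headers, and the strand is read from the order of the coordinates there. The chosen probe of MRPS9 spans 149 bases of the genome and the other 2 span 60 bases each.

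The span of the members over the lactation cycle is given first, beside that of all genes and with no test of the difference. The difference between the highest and the lowest day mean of a member was 0.25 to 1.51 on the log2 scale, with a median of 0.69, against a median of 1.03 and quartiles of 0.74 and 1.46 over all genes tested. In limma's moderated F test over the 9 days, 26 of 75 members (34.7%) passed an adjusted p of 0.05, beside 42.3% of the 20108 genes tested. Grouped by name, 10 of 29 members named for the large subunit with bacterial homologues passed, 8 of 17 named for the large subunit and specific to mitochondria, 5 of 18 named for the small subunit with bacterial homologues and 3 of 11 named for the small subunit and specific to mitochondria. MRPS36 is among these 3, and MRPS18A and MRPS30, which did not pass (adjusted p = 0.112 and 0.101), are counted under their small subunit names. The 10 members with the lowest p were MRPL33, MRPS9, MRPL50, MRPL20, MRPS36, MRPL19, MRPS33, MRPL44, MRPL51 and MRPL27, with adjusted p from 0.00105 to 0.0161. With 1 animal left out in turn, 4 to 23 members passed, and under the days of the scanner files 5 did. Shares of all genes in these alternative fits are not given here.

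Members peaked at different days. The highest day mean fell on day +15 in 23 members, on day +60 in 19, on day +180 in 15 and on day +240 in 9, and on day -30, day -15 or day +1 in 5, 1 and 3. The lowest fell on day +1 in 22 members, on day +120 in 18 and on day +30 in 11. No member was highest at day +30 or day +120, and none was lowest at day +15 or day +60. The mean log2 level over the 75 members was 1.45 ± 0.0689 (SD, n = 4) at day -30, 1.42 ± 0.0786 at day -15 and 1.35 ± 0.126 at day +1. It was 1.7 ± 0.196 at day +15, 1.43 ± 0.309 at day +30, 1.68 ± 0.0381 at day +60 and 1.33 ± 0.224 at day +120, and then 1.53 ± 0.265 at day +180 and 1.59 ± 0.207 at day +240. The 4 animals lay closest together at day +60, from 1.65 to 1.73, and furthest apart at day +30, from 1.1 to 1.77.

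**Figure D1:**
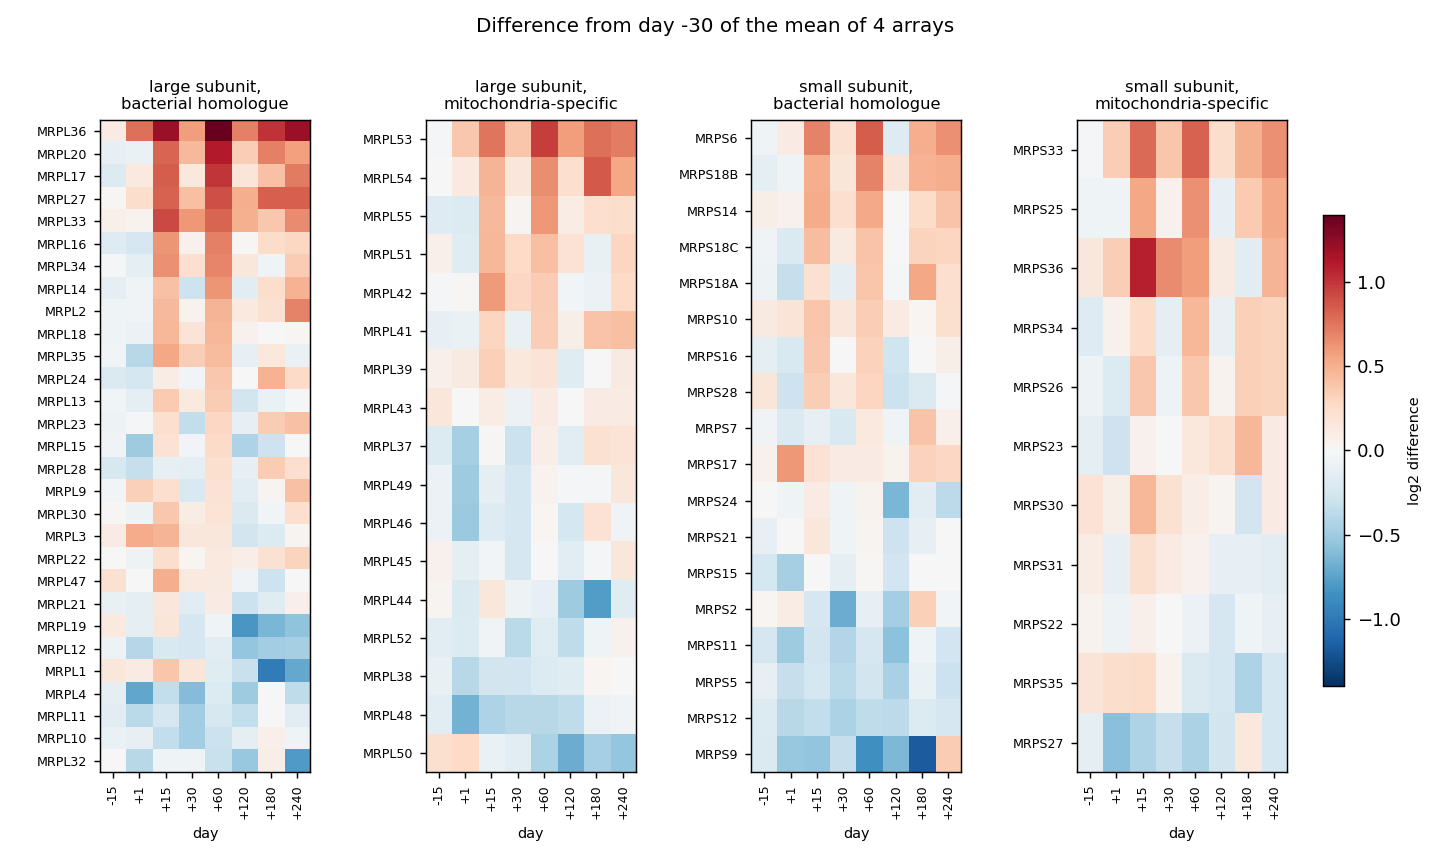
Mean log2 level of each member at 8 days less its mean at day -30 (colour, log2 difference, 4 arrays a day), by subunit and origin, with members of each group ordered by the difference at day +60. Red prevails in the upper rows at day +15 and day +60, where MRPL36 reached 1.21 and 1.37, and blue at day +1 and day +120.

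In late pregnancy no member moved detectably. At day -15 against day -30, 0 of 75 members were called by limma, 0 had an unadjusted p under 0.05 and 0 were called by the ordinary linear model with animal as a factor, beside 0.00497% of all genes called (1 gene, lower). Of all 20108 genes 208 had an unadjusted p under 0.05. Differences ran from -0.25 to 0.22, with a median of -0.05 against -0.02 over all genes.

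Just after calving, at day +1, 2 members fell and none rose, beside 6.24% of all genes called, 1.94% higher and 4.3% lower. The median difference of the members from day -30 was -0.11, against -0.06 over all genes, and 24 of 75 were positive. MRPL48, a large subunit protein specific to mitochondria, had log2 levels of 1.17, 1.22, 0.99 and 1.48 in animals 1 to 4 at day -30 and of 0.41, 0.62, 0.46 and 0.74 at day +1. The days did not overlap, and the fall was -0.66 (SE 0.168, 1.58-fold, adjusted p = 0.0173). MRPL4, homologue of a bacterial protein that lines the exit tunnel of the large subunit, was at 2.14, 1.44, 1.95 and 1.64 at day -30 and at 1.01, 0.84, 1.2 and 1.19 at day +1. All 4 animals were lower, by -0.73 (SE 0.213, 1.66-fold, adjusted p = 0.0365). Neither call was made with any 1 animal left out, or under the days of the scanner files, where the differences were -0.45 and -0.32. The other probe of MRPL48 was called at day +1, at -0.72 (adjusted p = 0.0197 over all probes tested). That of MRPL4 gave -0.55 and was not called (adjusted p = 0.222). At day +180 that probe of MRPL4 was called, at -0.75 (adjusted p = 0.0393), where the chosen probe differed by 0.

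At day +15, 8 members rose with none falling, beside 17.9% of all genes called, 10.2% higher and 7.71% lower. The median difference of the 75 members was 0.25, against -0.01 over all genes, and 55 were positive. The 8 were MRPL36, MRPS36, MRPL33, MRPL20, MRPL27, MRPS33, MRPS14 and MRPL51, with rises from 0.47 to 1.21, and in each of them all 4 animals were higher and the days did not overlap. Of these, 4 are large subunit proteins with bacterial homologues, 1 is a large subunit protein specific to mitochondria, 1 a small subunit protein with a bacterial homologue and 2 carry small subunit names specific to mitochondria. The other probe of MRPL20 gave 0.57 (adjusted p = 0.129 over all probes tested) and was not called. Dimmer probes of MRPL51 gave 0.29 and 0.1 (adjusted p = 0.562 and 0.873) and were not called. At day +180 the dimmest of them was called lower, at -1.19 (adjusted p = 0.0108), where the chosen probe differed by -0.1. Other probes of MRPL36 and MRPS33 were called at day +15, with rises from 0.62 to 1.18.

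MRPL33, homologue of a small bacterial protein near the exit site for transfer RNA, was at 1.54, 2.04, 1.8 and 1.88 in animals 1 to 4 at day -30 and at 2.79, 2.88, 2.59 and 2.71 at day +15. Every animal was higher, and the rise was 0.93 (SE 0.19, 1.9-fold, adjusted p = 0.0029). MRPL36, homologue of a very small zinc-binding protein of the bacterial large subunit, was at 2.29, 1.48, 1.99 and 1.61 at day -30 and at 2.92, 3.44, 2.6 and 3.26 at day +15. Its rise was the largest of the members at 1.21 (SE 0.379, 2.31-fold, adjusted p = 0.0283), with an SE larger than that of MRPL33. MRPS36 was at -0.08, 0.75, 0.39 and 0.73 at day -30 and at 1.46, 1.61, 1.4 and 1.7 at day +15, a rise of 1.09 (SE 0.238, 2.13-fold, adjusted p = 0.00433). MRPS33, specific to the mitochondrial small subunit, was at 2.36, 2.26, 1.99 and 2.3 and then at 2.92, 3.02, 2.88 and 3.24. The increase was 0.79 (SE 0.198, 1.73-fold, adjusted p = 0.00949).

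The direction of the rest of the members at day +15 depended on how arrays were scaled. With quantile normalization 4 members were higher and 13 lower, and the median was 0.02, and with each array set to a median of 0, 9 were higher, 0 lower and the median 0.35. With the log2 brightness of the array as a covariate 0 members were called and the median was -0.23. Shares and medians of all genes under these settings are not given here, so these shifts cannot be read as particular to the members. The 2 members with the largest rises kept their direction in all alternatives, from 0.1 to 1.41 for MRPL36 (adjusted p 0.00836 to 0.886) and from 0.49 to 1.19 for MRPS36 (0.00239 to 0.368).

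**Figure D2:**
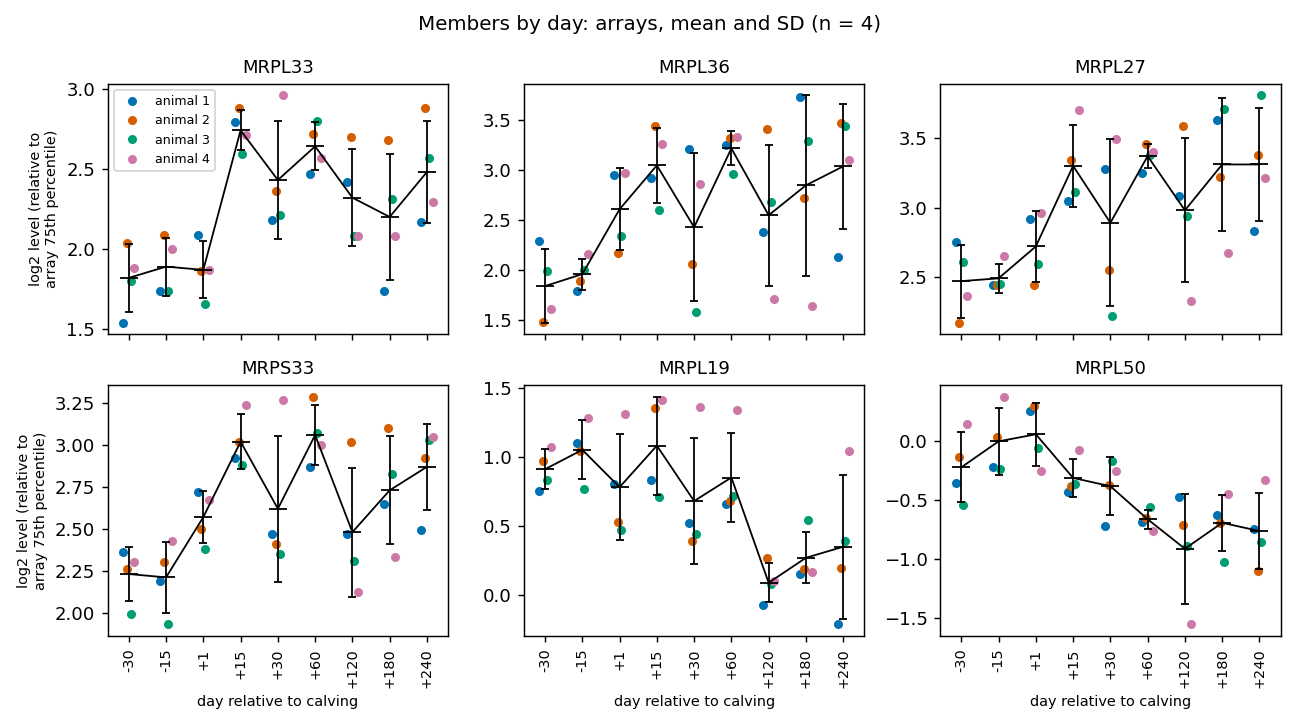
Log2 level of 6 members on each array (points, by animal), with the mean and SD of the 4 arrays of each day (bars, n = 4), against day relative to calving. MRPL33 stood at 1.82 on average at day -30 and 2.74 at day +15 with no overlap, MRPL19 dropped to 0.09 at day +120, and the animals were spread widely at day +30 and day +180.

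Day +60 had the most calls, 12 members higher and 1 lower, beside 29.3% of all genes called, 12.6% higher and 16.7% lower. The median difference from day -30 was 0.18, against -0.12 over all genes, with 55 of 75 members positive. MRPL36, MRPL20, MRPL17, MRPL27, MRPL33 and MRPL34, large subunit proteins with bacterial homologues, rose by 0.68 to 1.37. MRPL53, MRPL54 and MRPL51, large subunit proteins specific to mitochondria, rose by 0.42 to 0.97, and MRPS6, MRPS33 and MRPS14 of the small subunit by 0.53 to 0.85. The member that fell was MRPS9, described below.

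MRPL20, homologue of a bacterial protein that takes part in early assembly of the large subunit, was at 1.32, 1.18, 1.09 and 1.19 at day -30 and at 2.11, 2.28, 2.28 and 2.57 at day +60. The lowest array of day +60 lay above the highest of day -30, and the rise was 1.11 (SE 0.261, 2.16-fold, adjusted p = 0.00268). MRPL36 was at 3.25, 3.32, 2.96 and 3.33 at day +60, a rise of 1.37 over day -30 (SE 0.379, 2.59-fold, adjusted p = 0.00857). MRPL27, homologue of a bacterial protein that reaches towards the peptidyl transferase centre, was at 2.75, 2.17, 2.61 and 2.36 at day -30 and at 3.25, 3.46, 3.38 and 3.4 at day +60. It rose by 0.9 (SE 0.266, 1.87-fold, adjusted p = 0.013), and its day +60 values spanned less than those of any other lactation day.

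With quantile normalization 3 members were higher at day +60 and 13 lower, with a median of -0.1, whereas with each array set to a median of 0, 17 were higher and 0 lower. With brightness as a covariate 0 members were called, with a median of -0.21, and with 1 animal left out in turn 3 to 9 were. MRPL20 kept its direction over the alternatives, at 0.32 to 1.28 (adjusted p 0.00115 to 0.392), as did MRPL36, at 0.21 to 1.54 (0.00182 to 0.742). Under the days of the scanner files 1 member was higher and 1 lower at day +60, and 12 were higher at day +30. Shares of all genes under these alternative settings are not given here, so the member counts cannot be read as particular to the members. Brightness differed between day -30 and both day +15 and day +60 without overlap. So did the summed levels of the leukocyte, adipocyte, endothelial and epithelial markers, the last weighted towards milk protein mRNAs. The myoepithelial markers did so at day +60, and the stromal and muscle markers overlapped at both days. The part of these cell types in the calls was not tested.

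At day +30 and day +120 the members lay near or below their level of day -30. At day +30, 1 member was called, beside 6.38% of all genes, 2.12% higher and 4.26% lower, and the median difference was -0.01 against -0.05 over all genes. That member was MRPL33, at 2.18, 2.36, 2.21 and 2.96, higher than day -30 in all 4 animals by 0.61 (SE 0.19, 1.53-fold, adjusted p = 0.049). Animal 4 was the highest of that day, and without it the difference was 0.45 (adjusted p = 0.324, over a range of 0.00805 to 0.324 in all alternatives).

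At day +120, 1 member was called, beside 3.76% of all genes, 1.06% higher and 2.7% lower, and the median difference was -0.13 against 0.01 over all genes. MRPL19, homologue of a bacterial protein at the interface of the subunits, was at 0.75, 0.97, 0.83 and 1.07 at day -30 and at -0.07, 0.27, 0.08 and 0.1 at day +120. All 4 animals were lower, by -0.81 (SE 0.221, 1.76-fold, adjusted p = 0.0324). It stayed low at day +180, at 0.15, 0.19, 0.54 and 0.17, which was -0.64 from day -30 (SE 0.221, 1.56-fold, adjusted p = 0.0428). The other probes of MRPL19 gave -0.79 and -0.45 at day +120 and -0.95 and -0.5 at day +180, in the same direction but with larger SEs of 0.66 and 0.37, and neither was called. Without the arrays of animal 4 at day +120 and day +180, 6 members were called at day +120, 3 higher and 3 lower. The share of all genes in that fit is not given here.

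MRPL50, another mitochondria-specific protein of the large subunit, had its highest mean at day +1 and its lowest at day +120. Its log2 levels at day -30 were -0.35, -0.13, -0.54 and 0.15 and at day +1 0.26, 0.3, -0.06 and -0.25. They were -0.68, -0.65, -0.56 and -0.76 at day +60 and -0.74, -1.1, -0.85 and -0.33 at day +240. It passed the F test (adjusted p = 0.00265, range over the alternatives 0.000723 to 0.081) with no single day called against day -30, where the lowest adjusted p was 0.0559, at day +120.

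Late lactation brought calls in both directions. At day +180, 2 members rose and 3 fell, beside 17.5% of all genes called, 6.67% higher and 10.8% lower, with a median difference of 0.03 against -0.05. MRPL54 was at 1.86, 1.37, 1.76 and 1.41 at day -30 and at 3.13, 2.09, 2.84 and 1.77 at day +180, higher in 4 of 4 animals by 0.86 (SE 0.25, 1.81-fold, adjusted p = 0.0179). Animal 4 of day +180 lay within the range of day -30, so the days overlapped. The other probe of MRPL54 gave 0.55 at day +180 (adjusted p = 0.136 over all probes tested) and 0.38 at day +60 (adjusted p = 0.283), and neither was called. MRPL27 was higher by 0.84 (SE 0.266, 1.79-fold, adjusted p = 0.0281), at 3.63, 3.22, 3.71 and 2.67, the last within the range of day -30. MRPL44, which carries a ribonuclease III fold, was at 1.25, 1.59, 1.29 and 1.56 at day -30 and at 0.39, 0.71, 1.36 and 0.12 at day +180. It was lower by -0.78 (SE 0.202, 1.72-fold, adjusted p = 0.0081), though animal 3 was higher and the days overlapped. Without the arrays of animal 4 that were low in milk protein mRNA, 18 members were called at day +180, 13 higher and 5 lower, and the median was 0.18. The share of all genes called in that fit is not given here. MRPL44 was then lower by -0.6 (adjusted p = 0.0304, range over the alternatives 0.000416 to 0.112).

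At day +240, 4 members rose and none fell, beside 13.9% of all genes called, 6.86% higher and 7.08% lower, with a median difference of 0.13 against -0.01 and 50 of 75 positive. MRPL33 was at 2.17, 2.88, 2.57 and 2.29, above day -30 by 0.66 (SE 0.19, 1.58-fold, adjusted p = 0.0217). MRPS33 was at 2.49, 2.92, 3.03 and 3.05, a rise of 0.65 (SE 0.198, adjusted p = 0.0299) with no overlap, and MRPL27 at 2.83, 3.38, 3.81 and 3.21, a rise of 0.84 (SE 0.266, adjusted p = 0.0351). MRPL36 was at 2.13, 3.47, 3.44 and 3.1, a rise of 1.19 (SE 0.379, adjusted p = 0.0351) in 3 of 4 animals, since animal 1 was below its own day -30. Without animal 1, 5 members were higher and 0 lower at day +240, and without animal 2 or animal 3, 0 were called. With quantile normalization 0 members were higher and 7 lower at day +240, and with normexp background correction 0 were called. Shares of all genes in these alternative fits are not given here, so these counts cannot be read as particular to the members.

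Between successive days calls were rare. From day +1 to day +15, 68 of 75 members were higher, with a median difference of 0.35 against 0.09 over all genes. Of the members 26 had an unadjusted p under 0.05, beside 4084 of all 20108 genes. After adjustment 1 member was called, beside 0.318% of all genes, 0.179% higher and 0.139% lower. This was MRPL33, at 2.09, 1.86, 1.66 and 1.87 at day +1 and 2.79, 2.88, 2.59 and 2.71 at day +15, a rise of 0.87 (SE 0.19, 1.83-fold, adjusted p = 0.0432). Under the days of the scanner files that difference was -0.17. From day +60 to day +120 the members shifted the other way, with 6 of 75 higher and a median of -0.35 against 0.11. Of the members 21 had an unadjusted p under 0.05, beside 3784 of all 20108 genes. By limma 0 were called, beside 0.89% of all genes, 0.796% higher and 0.0945% lower, and by the ordinary linear model 1 was. From day +15 to day +30, 4 of 75 members were higher and the median was -0.26 against -0.07. An unadjusted p under 0.05 was found in 2 members, beside 1450 of all 20108 genes. By either test 0 were called, beside 0.0149% of all genes by limma. From day -15 to day +1 0 members were called by limma, 6 had an unadjusted p under 0.05 and 1 was called by the ordinary linear model. Beside them 1.79% of all genes were called by limma, 0.512% higher and 1.27% lower, and 3107 of 20108 had an unadjusted p under 0.05. From day +30 to day +60 the 3 member counts were 0, 13 and 0. Beside them 0.88% of all genes were called by limma, and 3319 of 20108 had an unadjusted p under 0.05. From day +120 to day +180 the member counts were 0, 14 and 1. Beside them 0.338% of all genes were called by limma, 0.0547% higher and 0.283% lower, and 3075 of 20108 had an unadjusted p under 0.05. From day +180 to day +240, 1 member was called, beside 0.801% of all genes, 0.721% higher and 0.0796% lower, and that was MRPS9.

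MRPS9, homologue of a bacterial small subunit protein whose tail reaches the decoding region, had the largest fall from day -30 among the members on their chosen probes. It was at 1.44, 1.66, 1.29 and 1.24 in animals 1 to 4 at day -30, at 0.39, 0.03, 1.12 and 0.68 at day +60, and at 0.62, -0.38, 0.43 and 0.35 at day +180. Every animal was lower at both days, by -0.85 at day +60 (SE 0.252, 1.81-fold, adjusted p = 0.0129) and by -1.15 at day +180 (SE 0.252, 2.22-fold, adjusted p = 0.00222). At day +240 the same probe read 1.41, 1.92, 1.79 and 1.94, above all arrays of day +180, a rise of 1.51 between these days (SE 0.252, 2.85-fold, adjusted p = 0.00257). Without the replicate of animal 2, 3 or 4 that rise was 1.24, 1.56 or 1.48 and was no longer called, over an adjusted p range of 0.00112 to 0.762 in all alternatives.

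The other probes of MRPS9 followed other courses. On the 3′ probe MRPS9 fell at day +1 by -0.67 (SE 0.149, adjusted p = 0.00862 over all probes tested) and stood at -0.51 to -0.69 from day +15 to day +240, called at each of these days. Its levels were -0.62, -0.8, -0.66 and -0.87 at day -30 and -1.7, -1.37, -1.23 and -1.32 at day +1, with no overlap. The middle probe fell by -0.63 at day +1 (SE 0.171, adjusted p = 0.0271) and by -0.49 at day +180 (adjusted p = 0.0444), was at -0.38 at day +60 (adjusted p = 0.0965) and did not pass the F test over the days (adjusted p = 0.108). From day +180 to day +240 the 3′ and middle probes differed by -0.04 (adjusted p = 0.915) and 0.16 (adjusted p = 0.692), against 1.51 on the chosen probe. With the mean of all probes of a gene, the difference from day +180 to day +240 was 0.54 (adjusted p = 0.137). Under the days of the scanner files the chosen probe differed by 0.12 at day +180 against day -30 and by 0.22 from day +180 to day +240, and neither was called.

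**Figure D3:**
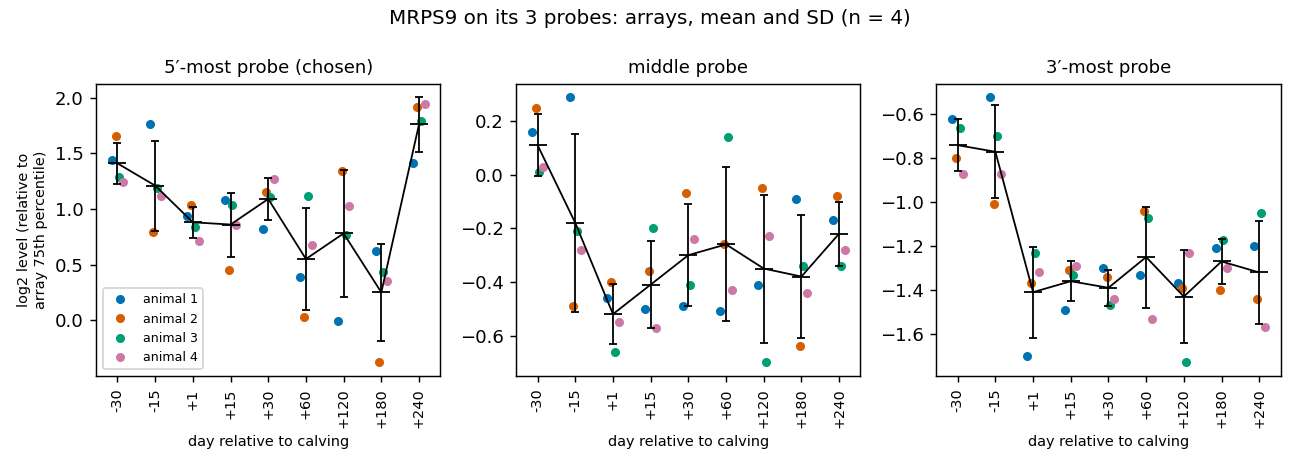
Log2 level of MRPS9 on each of its 3 probes (points, 4 animals; bars, mean and SD, n = 4) against day relative to calving, each plot with its own scale. The chosen probe returned to 1.76 at day +240 after 0.25 at day +180, whereas the 3′ probe stayed at -1.27 and -1.32.

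Of the 75 members, 42 had more than 1 probe in the table, with 62 probes beside the chosen ones. At day +15 against day -30, 56 of these 62 had the sign of the chosen probe and 6 the opposite one, with a median absolute difference of 0.11. At day +60, 51 had the same sign and 11 the opposite one, with a median absolute difference of 0.13. In the F test 40 fell on the same side of the threshold as the chosen probe and 22 on the other. No member had 1 probe called higher and another called lower in the same comparison. MRPL12, homologue of the bacterial stalk protein, is named after its values were seen, for the largest falls of any member probe at day +15 and day +60. Its chosen probe differed from day -30 by -0.21 (adjusted p = 0.539) and -0.15 (adjusted p = 0.653) at these days, and another by -0.23 and -0.24, with neither called. Of its dimmer probes, 1 fell by -0.93 (SE 0.231, adjusted p = 0.00953) and -1.06 (adjusted p = 0.00161), and 1, above background on 35 of 36 arrays, by -1.76 (SE 0.528, adjusted p = 0.0247) and -1.67 (adjusted p = 0.0203).

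At day +30 and day +120 the dimmer arrays had the higher member levels, but not every day showed this. At day +30 the 4 arrays had mean member levels of 1.61, 1.26, 1.1 and 1.77 in animals 1 to 4, and log2 brightness of 11.08, 12.12, 12.47 and 10.45. At day +120 the levels were 1.34, 1.63, 1.25 and 1.1 at a brightness of 11.1, 10.2, 11.35 and 12.65. The dimmest array had the highest member mean on 5 of 9 days, and the brightest array had the lowest, or shared it, on 6 of 9 days. At day -30 the brightest array, that of animal 1 at 12.49, had the highest member mean, 1.54. At day +60 the member means were 1.65 to 1.73 over a brightness of 10.32 to 11.29. Brightness is also the value subtracted from each array in scaling, so the member level is not independent of it. With brightness in the fit, the differences between days were those given above.

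**Figure D4:**
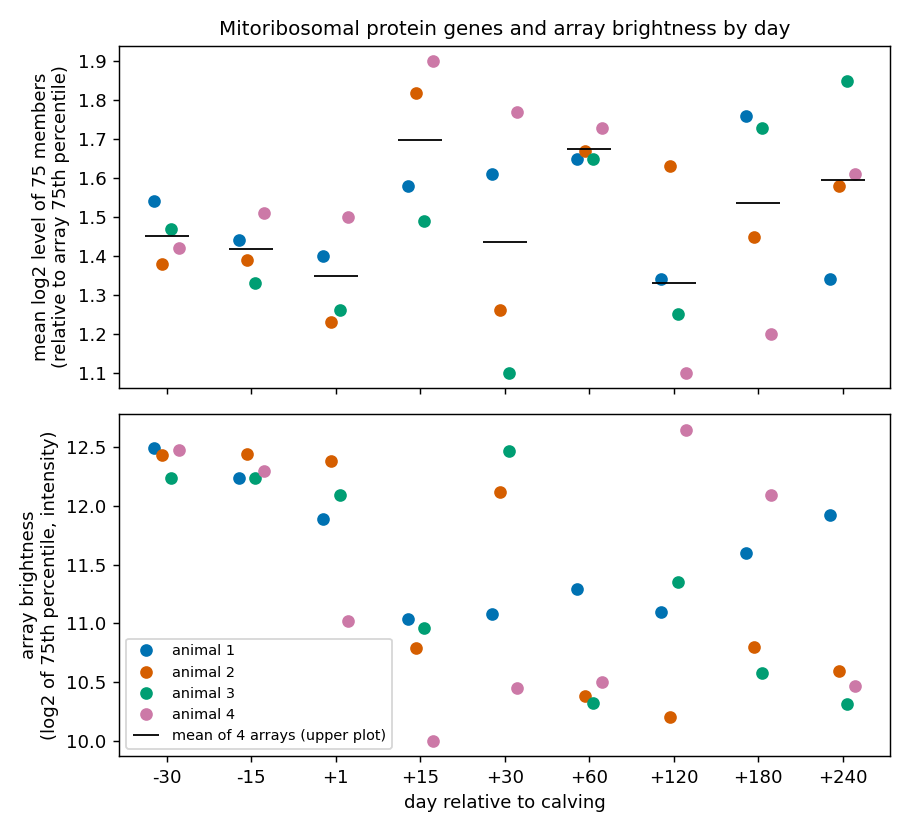
Mean log2 level of the 75 members (upper plot) and log2 of the 75th percentile of signal intensity (lower plot) of each of the 36 arrays against day, by animal, with black bars for the mean of 4 arrays. The arrays of day +15 and day +60, with member means of 1.7 and 1.68, are dim, and at day +30 the bright arrays of animals 2 and 3 have the low member means. At day -30 the brightest array has the highest member mean.

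Genes of the cytosolic ribosome and of the respiratory chain were set beside the members at the same days. Of 85 genes of the cytosolic ribosome, 79 passed the F test, beside 42.3% of all genes, and 55 were called higher and 1 lower at day +15, beside 10.2% and 7.71% of all genes, with a median of 0.93. At day +60, 66 were higher and 2 lower (median 0.94), beside 12.6% and 16.7% of all genes, and at day +240, 47 and 2 (median 0.93), beside 6.86% and 7.08%. Of 90 genes picked by name patterns of nuclear subunits of oxidative phosphorylation, 56 passed the F test. At day +15, 43 were higher and 2 lower (median 0.68), with 40 and 1 at day +60 (median 0.58) and 10 and 1 at day +240 (median 0.41). These patterns also admit assembly factors whose names begin with NDUFAF. The mitoribosomal medians of 0.25, 0.18 and 0.13 at these days thus lay between those of all genes and those of the respiratory chain, and the lists were not tested against each other. All 3 lists were compared with the same arrays of day -30.

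**Figure D5:**
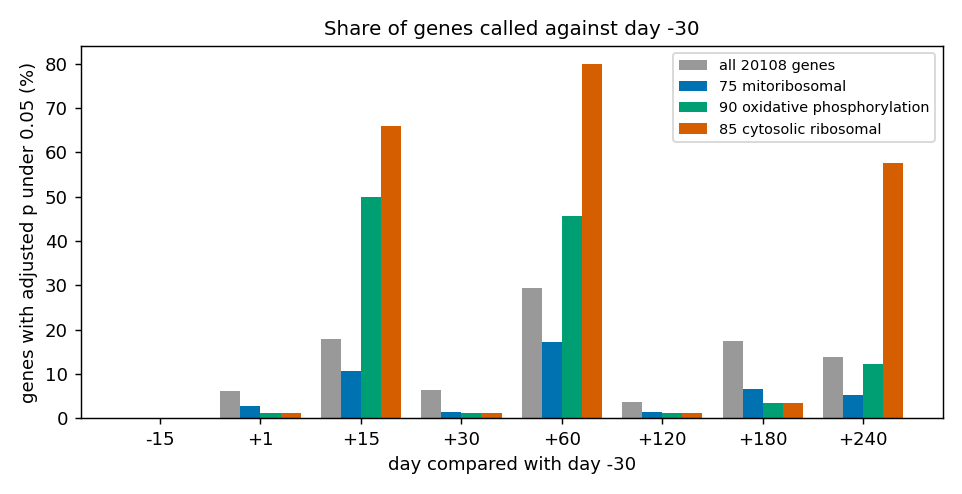
Share of genes with an adjusted p under 0.05 against day -30 (bars, percent) at 8 days, for all genes tested, 75 mitoribosomal, 90 oxidative phosphorylation and 85 cytosolic ribosomal genes. At day +60 the shares are 29.3%, 17.3%, 45.6% and 80%.

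Other genes of mitochondrial translation, transcription and biogenesis were examined as 82 genes in several lists, which include 7 mitoribosomal proteins with other names. Of the 82 genes, 37 (45.1%) passed the F test, near the 42.3% of all genes. At day +15, 8 were higher and 13 lower, or 25.6% called beside 17.9% of all genes, with a median of 0.05 against -0.01. At day +60, 5 were higher and 16 lower, or 25.6% beside 29.3%, with a median of -0.1 against -0.12. Aminoacyl-tRNA synthetases of mitochondria and related enzymes, which charge the transfer RNAs used by the mitoribosome, had 8 of 19 called lower and none higher at day +60, beside 16.7% and 12.6% of all genes, with a median of -0.56 against -0.12. SARS2, the seryl-tRNA synthetase, was at -0.77, -1.25, -0.83 and -1.3 at day -30 and at -1.89, -2.12, -2.59 and -2.06 at day +60, lower in all animals by -1.13 (SE 0.224, 2.18-fold, adjusted p = 0.000658). Of 23 assembly factors, 1 was higher and 7 lower at day +15, beside 10.2% and 7.71% of all genes. The translation factors, 13 genes, had none called at that day, with 1 at an unadjusted p under 0.05, beside 6804 of all 20108 genes. GTPBP10, a GTPase of large subunit assembly, was lower at day +240 by -1.51 (SE 0.313, 2.85-fold, adjusted p = 0.00253), at -3.58, -2.9, -3.05 and -2.61 against -2.32, -0.79, -1.87 and -1.1 at day -30.

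Of 8 regulators of mitochondrial biogenesis, 3 were called higher and 1 lower at day +15, beside 10.2% and 7.71% of all genes. At day +60, 2 were higher and 1 lower, beside 12.6% and 16.7%. In the F test 5 of the 8 passed, beside 42.3% of all genes. NRF1, GABPB1 and YY1 did not (adjusted p = 0.216, 0.412 and 0.317). PPARGC1A, the coactivator PGC-1 alpha, was at -4.92, -3.51, -4.57 and -5.26 at day -30 and at -1.41, -1.11, -1.33 and -0.96 at day +15, a rise of 3.36 (SE 0.532, 10.3-fold, adjusted p = 0.000317). At day +120 and later it was not called. ESRRA, the nuclear receptor it coactivates, was at 0.87, 0.19, 0.64 and 0.38 at day -30 and at 1.72, 1.98, 1.58 and 1.82 at day +60, a rise of 1.25 (SE 0.277, 2.38-fold, adjusted p = 0.00164). MYC, which drives ribosome and mitochondrial biogenesis in growing cells, was at 2.57, 2.26, 2.12 and 2.35 at day -30 and at 0.58, 0.15, 0.5 and 1.12 at day +15. It was lower by -1.74 (SE 0.273, 3.34-fold, adjusted p = 0.000295) and was called lower against day -30 in all 7 comparisons after calving.

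The relation across members between the difference from day -30 and features of the probe varied with the day. Spearman's rho between the mean level of the probe and the difference was -0.36 across the 75 members at day -15, 0.23 at day +1, 0.27 at day +15 and 0.01 at day +30, against 0.12, 0.22, 0.26 and 0.18 across all genes tested. It was 0.49 at day +60, 0.43 at day +120, 0.57 at day +180 and 0.63 at day +240, against 0.44, 0.24, 0.44 and 0.41. Mean level includes the arrays of the compared days and was used to pick each probe. Level and difference are therefore not independent. With the position of the probe in its transcript, rho across members was -0.05, -0.27, -0.37, -0.32, -0.34, -0.18, -0.09 and -0.39 from day -15 to day +240 in order of days, and across all genes it lay between -0.07 and 0.11. With the GC content of the probe it was -0.46, -0.2, -0.25 and -0.4 from day -15 to day +30 and 0.06, 0.06, 0.34 and 0.22 from day +60 to day +240, against -0.26, -0.19, -0.11, -0.12, -0.1, -0.05, 0.01 and 0.07 across all genes. Genes share arrays and are not independent replicates, and these values are descriptions of the 36 arrays.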

How the data were processed

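Deposited for this series were 36 scanner files, whose signal intensity was extracted with Agilent Feature Extraction 10.7.3.1, per the file headers, and a value table of log2 values made by the authors in GeneSpring version 12, per the series' design text. Compared with the scanner files, each column of the table was log2 of the processed signal less its 75th percentile. Per the same text, the authors fitted time and yak with JMP genomics version 7. The members and gene lists were chosen with earlier results of these data known.

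For each gene name the probe with the highest mean over the 36 arrays was used, and 20108 of 20110 genes were kept, those well above background on at least 3 of 4 arrays of 1 day in the scanner file equal to the column. The fit was made with limma 3.58.1 in R 4.3.3, with day as a factor and the animal as a random block (consensus correlation 0.0531), Benjamini-Hochberg adjustment over all genes within each of 15 comparisons and an F test, two-sided, called at 0.05. Fold changes are 2 to the power of the log2 difference. Same-numbered samples are the same animal by the labels. Of 36 arrays, 32 deviated from their day mean most like another array of the same number. Over all pairs of arrays of the same number on different days the mean correlation was 0.152. The -0.0509 for other numbers is not an independent value, since the deviations within a day cancel out. Number and slide position coincide by the record of the value table, so the match cannot tell animal from position. Separate biopsies of 4 animals per day limit the precision. Genes named singly were the 10 members with the lowest F test p and, in each comparison, up to 2 called members and pathway genes with the largest rise and fall, plus those named to complete a count. The cytosolic ribosome list omitted ribosomal S6 kinases, whose names match its pattern. Control spots were not used. The fit was tested on simulated data. No genome or promoter sequence was used here.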

Additional observations from a re-analysis of the deposited data

Results flagged for a closer look

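In groups of 4 arrays a sample was singled out when its gap to the nearest other exceeded Dixon's critical share of the group's range, which chance gives in about 1 of 20 groups, and 11 of 198 groups had such a sample. Animal 4 stood above the rest at day +30 in MRPS33, at 3.27 against 2.35 to 2.47, in MRPL19, at 1.36 against 0.39 to 0.52, and in MRPL51, at 2.04 against 1.38 to 1.49. It was also high in MRPL27 at day -15, at 2.65 against 2.44 to 2.45, and in MRPL19 at day +60, at 1.34 against 0.66 to 0.72. Animal 3 was high in MRPL19 at day +180, at 0.54 against 0.15 to 0.19. Animal 1 was low in MRPS36 at day +240, at 0.12 against 1.14 to 1.27, and in ESRRA at day -15, at 0.51 against 0.87 to 0.94. At day +180 animal 1 was high in MYC, at 1.88 against 0.84 to 0.95, and in SARS2, at -0.56 against -1.78 to -1.59, and animal 3 was low in GTPBP10, at -3.59 against -2.52 to -2.44. The array of animal 4 at day +30 was the dimmest of its day, with a log2 brightness of 10.45 against 11.08 to 12.47, and its part in these values was not tested.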

How the results depend on the processing

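The number of members called depended on the setting, and the values below replace the 26 members of the F test and the 0, 2, 8, 1, 13, 1, 5 and 4 members called against day -30. The share of all genes called under each alternative setting is not set beside these counts, here or above. A change in a count can therefore not be read as particular to the members. Normexp background correction gave 13 in the F test, 1 at day +1, 0 at day +30, 8 at day +60, 0 at day +120, 0 at day +240 and 0 from day +1 to day +15. Quantile normalization gave 8 at day +1, 17 at day +15, 8 at day +30, 14 at day +120, 11 at day +180, 7 at day +240 and 3 from day -15 to day +1, and 15 of its 30 members in the F test were among the 26. Brightness as a covariate gave 11 at day +1, 0 at day +15, 8 at day +30, 0 at day +60, 12 at day +120, 3 from day -15 to day +1, 0 from day +1 to day +15 and 1 from day +120 to day +180. The days of the scanner files gave 5 in the F test, 0 at day +1, 0 at day +15, 12 at day +30, 2 at day +60, 4 at day +120, 2 at day +180, 0 at day +240 and 0 from day +1 to day +15 and from day +180 to day +240. Each array set to a median of 0 gave 0 at day +1, day +30 and day +120 and 0 from day +1 to day +15. Without the replicate block, that is without pairing by animal, there were 21 members in the F test and 0 at day +30, at day +120 and from day +1 to day +15, and a fixed replicate block gave 2 at day +120 and 1 from day +60 to day +120. The ordinary linear model gave 6 at day +1, 2 at day +30, 3 at day +120 and 2 from day +1 to day +15, and 1 each from day -15 to day +1, day +60 to day +120 and day +120 to day +180. Fits of the compared days alone gave 6 at day +1, 0 at day +30, 0 at day +120, 1 at day +180, 1 at day +240, 4 from day -15 to day +1, 12 from day +1 to day +15 and 0 from day +180 to day +240. Only genes above background on all arrays gave 2 from day +1 to day +15, and the mean of all probes 0 from day +180 to day +240. Leaving out 1 animal in turn gave 4 to 23 in the F test, 0 at day +1, 2 to 4 at day +15, 0 at day +30, 3 to 9 at day +60, 0 to 2 at day +120, 1 to 8 at day +180, 0 to 5 at day +240, 0 from day +1 to day +15 and 0 to 1 from day +180 to day +240. Without the arrays of animal 4 at day +120 and day +180, a setting chosen after seeing the data, 4 were called at day +1, 2 at day +30, 6 at day +120, 18 at day +180, 7 at day +240, 5 from day +1 to day +15 and 1 from day +120 to day +180. Of the values of single members named, 324 kept direction and call, 123 lost the call and 2 reversed, MRPS9 at day +180 (0.12) and MRPL33 from day +1 to day +15 (-0.17), both under the days of the scanner files. The cause of these changes was not tested.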
